A study of Mus musculus with 10 samples.

Results

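Mybpc1, Mybpc2 and Mybph are the genes of slow-type myosin binding protein C, fast-type myosin binding protein C and myosin binding protein H. They were taken by name from the Ensembl identifiers with a GRCm38 annotation, and are 3 of the 16112 genes in the files. Their transcripts were followed in 10 RNA-seq libraries of wild-type mouse skeletal muscle: 3 of the extensor digitorum longus (EDL), a fast hindlimb muscle, 3 of the psoas, a fast muscle of the trunk and hip, and 4 of the soleus, a slow hindlimb muscle. All mice were wild-type animals of the strain B6C3Fe a/a-Ttnmdm/J, which came from a colony that also carries the Ttn mdm allele. The sources used here name no treatment, but the paper states that the mice had also served in another study. In EDL and in psoas, replicates 1, 2 and 3 came from mice of 42, 54 and 44 days, and soleus replicates 1 to 4 from mice of 42, 44, 32 and 44 days. Replicates 1 and 2 of EDL and of psoas and replicate 1 of soleus were male, the sex of soleus 3 is not given, and the others were female. The labels hold 7 animal codes, and 3 codes appear in soleus and in a fast muscle. The study's methods count fewer mice than codes, so libraries with different codes may share a mouse.

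Myosin binding protein C is a rod of immunoglobulin and fibronectin type III domains that lies across the thick filament of the sarcomere, bound to myosin and titin, and reaches toward actin. It tunes how readily myosin heads bind actin, and phosphorylation by protein kinase A and other kinases changes that action. Slow-type protein C is made in slow and in fast skeletal fibers, fast-type protein C in fast fibers, and protein H is a shorter relative that also sits on the thick filament.

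Mybpc1 (ENSMUSG00000020061) lies on the minus strand at chr10:88518279-88605152 in GRCm38, with 6 annotated transcripts whose exons cover 4527 bases. Mybpc2 (ENSMUSG00000038670) lies on the minus strand at chr7:44501699-44524656, with 2 transcripts over 3611 exon bases. Mybph (ENSMUSG00000042451) lies on the plus strand at chr1:134193448-134201232, with 2 transcripts over 2329 exon bases. The coding lengths are 3381, 3408 and 1449 bases. Mybpc1 and Mybpc2 were identical at 60.1% of 3291 aligned coding bases, Mybpc1 and Mybph at 59.1% of 1413, and Mybpc2 and Mybph at 60.1% of 1370. No stretch of 75 bases, the read length, from any of the 3 genes occurred in same-strand transcripts of another gene, so reads of the members can be told from each other.

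The sequences before the start sites are shown because Mybpc2 and Mybph were both far lower in soleus, while Mybpc1 was not. They are the 250 bases before each start site in RefSeq (GRCm38.p6), written 5′ to 3′ on the strand of the gene, at chr10:88605153-88605402 (minus strand), chr7:44524670-44524919 (minus strand) and chr1:134193198-134193447 (plus strand). Capitals mark matches, on either strand, to the E-box CANNTG bound by myogenic factors, to the MCAT motif CATTCC bound by TEAD factors, and to the NFAT core GGAAA.
Mybpc1: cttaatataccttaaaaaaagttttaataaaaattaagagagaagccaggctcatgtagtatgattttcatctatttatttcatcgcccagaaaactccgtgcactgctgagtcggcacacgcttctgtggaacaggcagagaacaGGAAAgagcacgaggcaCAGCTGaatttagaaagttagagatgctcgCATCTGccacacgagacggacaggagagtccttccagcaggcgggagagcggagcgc
Mybpc2: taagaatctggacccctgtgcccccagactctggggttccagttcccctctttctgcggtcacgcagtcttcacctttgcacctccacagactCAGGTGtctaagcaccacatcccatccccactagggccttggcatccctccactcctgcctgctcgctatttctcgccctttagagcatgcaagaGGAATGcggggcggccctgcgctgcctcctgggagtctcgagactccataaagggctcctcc
Mybph: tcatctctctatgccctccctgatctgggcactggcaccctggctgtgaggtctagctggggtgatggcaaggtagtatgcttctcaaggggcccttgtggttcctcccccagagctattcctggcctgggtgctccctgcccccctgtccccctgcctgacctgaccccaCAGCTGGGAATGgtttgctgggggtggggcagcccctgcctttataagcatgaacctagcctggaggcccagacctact
Counted over these bases and the 50 that follow the start site, Mybpc1 had 3 E-boxes, no MCAT match and 1 NFAT match. Mybpc2 had 2 E-boxes, 1 MCAT match and no NFAT match. Mybph had 1 E-box and 1 MCAT match, which lie side by side without overlapping, and no NFAT match. Of the 32534 promoters of 300 bases in the table, 72.3% held an E-box, 14.6% an MCAT match and 61.5% an NFAT match. GC content was 46.7% for Mybpc1, 60.7% for Mybpc2 and 61.0% for Mybph, beside a median of 53.0% over all promoters. These matches are letters in a window and not evidence of binding. Only 1 window per gene was searched, whereas the annotation used for exon lengths lists 4 coding start sites for Mybpc1 and 2 each for Mybpc2 and Mybph.

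Libraries held between 12737971 and 50431713 counts. A limit of 3 counts was set for a count of 0, which corresponds to between 0.0595 and 0.236 CPM, a gene's counts scaled to the library total. The exact 95% Poisson interval of a count of 0 ends slightly higher, at 3.69 counts. Intervals and limits of this kind cover counting error only. The muscle labels were checked with marker genes. The 7 muscle fiber markers summed to at least 51420 normalized CPM in every library. The summed level of 5 slow fiber markers was between 12231 and 21048 normalized CPM in soleus, and at most 232 in EDL and 25.3 in psoas. The summed level of 5 fast fiber markers was at least 58335 in EDL and 78387 in psoas, and at most 14755 in soleus. Markers of other tissues also differed between muscles. The 6 tendon markers summed to between 669 and 762 CPM in EDL, 30.3 and 80.3 in psoas, and 107 and 446 in soleus, and the 5 adipocyte markers to between 8.52 and 24.4, 9.21 and 47.2, and 30.6 and 138, in the same order. The markers of new or denervated fibers, of which 5 of 6 were among the genes analysed, summed to between 929.7 and 1035 in EDL, 1042 and 1555 in psoas, and 403 and 565 in soleus. A sum follows its most abundant genes. Myh8, a myosin heavy chain gene, alone averaged 933, 1303 and 373 normalized CPM in the same order, close to these last sums. The heavy chain gene Myh3 averaged 28.8 ± 17.4, 24.6 ± 15.4 and 47.1 ± 27.3 (SD), with its highest mean in soleus. The sums therefore cannot rank the muscles by new or denervated fibers. The part of the tendon, adipocyte and fiber markers in the results was not tested. Of the 6 heart muscle markers, Myl7, Nppa and Nppb were not among the genes analysed, and the other 3 summed to at most 9.82 CPM. In whole muscle, fewer fibers of a type and less RNA per fiber cannot be told apart.

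Per kilobase of exon, the order of the 3 genes was the same in both fast muscles. Levels are given here as normalized CPM per kilobase (FPKM). In EDL, Mybpc2 stood at 732 ± 283 FPKM (SD, n = 3), Mybpc1 at 219.9 ± 45.9 and Mybph at 12.9 ± 8.7. In psoas, Mybpc2 stood at 982 ± 14.8 FPKM (SD, n = 3), Mybpc1 at 221 ± 53.5 and Mybph at 15.6 ± 13.2. The order of the first and second gene was the other way in soleus, where Mybpc1 stood at 404 ± 18.6 FPKM (SD, n = 4), Mybpc2 at 69.6 ± 49.0 and Mybph at 0.184 ± 0.095. Within each muscle, the ranges of the 3 genes did not overlap. By mean FPKM, Mybpc2 ranked 61 of 16032 genes in psoas, 70 in EDL and 461 in soleus, and Mybpc1 ranked 89 in soleus, 146 in EDL and 162 in psoas. Mybph ranked 1712 in psoas, 1818 in EDL and 13708 in soleus.

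**Figure D1:**
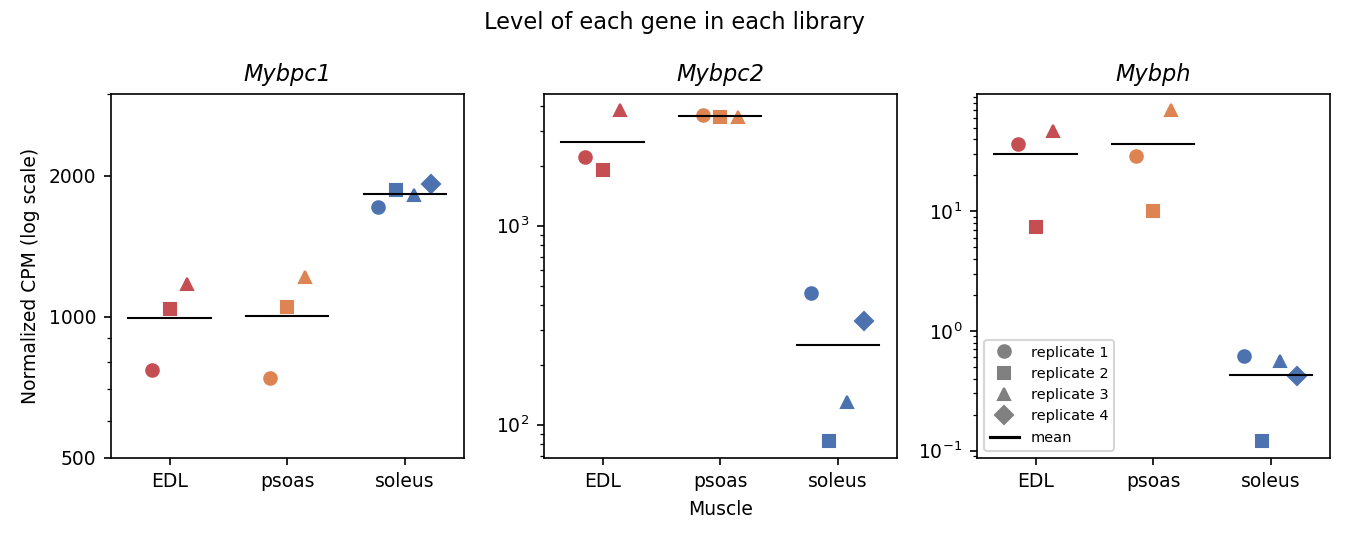
Normalized CPM on log axes (vertical) of Mybpc1, Mybpc2 and Mybph in the libraries of each muscle (horizontal); symbols are replicates and black lines are means. All 4 soleus libraries lie above the fast muscles for Mybpc1 and below them for Mybpc2 and Mybph, and replicate 2 is the lowest for Mybph in each muscle.

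Mybpc1, the slow-type gene, was abundant in all 3 muscles. In EDL replicates 1 to 3, its normalized CPM was 769, 1040.0 and 1177. In psoas, the values were 739, 1052 and 1216. In soleus, they were 1720.2, 1866, 1819 and 1918. Every soleus library was above every EDL and psoas library, whereas EDL and psoas covered nearly the same range. The mean in soleus was 1831 ± 84.2 (SD, n = 4), against 996 ± 208 in EDL and 1003 ± 242 in psoas (SD, n = 3 each). The log2 fold change was 0.88 (SE 0.23, 95% interval 0.37 to 1.39) for soleus against EDL and 0.87 (SE 0.23, 0.36 to 1.38) for soleus against psoas. With edgeR's quasi-likelihood test and Benjamini-Hochberg adjustment, p was 0.0235 and 0.0281, so neither comparison passed. A gene was called where its adjusted p was below 0.01 and it changed by more than 2-fold. The estimates for Mybpc1, 1.84-fold against EDL and 1.83-fold against psoas, were below that size as well. With DESeq2's Wald test, its adjusted p was 0.000348 and 0.000586, and its log2 fold changes of 0.87 and 0.84 were again less than 2-fold. Ranges that do not overlap were found for 29.5% of all genes between soleus and EDL and for 25.8% between soleus and psoas. With read trimming as a covariate, the log2 fold change was 0.62 against EDL (adjusted p = 0.176) and 0.61 against psoas (adjusted p = 0.142). No soleus library was trimmed, so the trimming term rests on the fast muscles. There the trimmed libraries were male and the untrimmed ones female, so trimming and sex cannot be told apart. The only untrimmed fast libraries were EDL 3 at 1177 and psoas 3 at 1216, against a lowest soleus value of 1720.2. Their order follows from the ranges given above and is not a separate check.

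In the comparison of psoas with EDL, 2.11% of all genes were called and none of the 3 members was. Mybpc1 had a log2 fold change of 0.01 (SE 0.24, 95% interval -0.52 to 0.54), with an adjusted p of 0.985. The data therefore leave room for a fold change between 0.697 and 1.46, and the sign of the estimate turned with several settings.

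Mybpc2, the fast-type gene, was the most abundant member in the fast muscles and was low in soleus. In EDL replicates 1 to 3, its normalized CPM was 2209.5, 1912 and 3810.2. In psoas, the values were 3603, 3498 and 3536. In soleus, they were 462, 82.6, 129 and 332. The psoas libraries lay close together inside the EDL range, and the highest soleus library was below the lowest library of either fast muscle. Mybpc2 was called lower in soleus against EDL, with a log2 fold change of -3.40 (SE 0.52, 95% interval -4.54 to -2.25), or 10.5-fold, and an adjusted p of 0.00166 (edgeR's quasi-likelihood test, Benjamini-Hochberg). Of all genes, 2.18% were called lower in this comparison, and 2 of the 3 members were. Mybpc2 was also called lower in soleus against psoas, with a log2 fold change of -3.82 (SE 0.53, 95% interval -4.98 to -2.65), or 14.1-fold, and an adjusted p of 0.000874. There, 2.71% of all genes were called lower, and again 2 of the 3 members. The call against EDL was lost in a test against a fold change of 2 (adjusted p = 0.0105) and with a covariate that stands in for the sequencing run (adjusted p = 0.0142).

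Between psoas and EDL, Mybpc2 had a log2 fold change of 0.42 (SE 0.53, 95% interval -0.75 to 1.59) and an adjusted p of 0.648. The means of 3546 ± 53.3 in psoas and 2644 ± 1021 in EDL (SD, n = 3 each) differed by less than the spread of the EDL libraries.

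Within soleus, Mybpc2 varied 5.59-fold between the lowest and the highest library, whereas Mybpc1 varied 1.12-fold. The fast myosin heavy chain gene Myh4 stood at 1559, 113, 1692 and 1548 normalized CPM in soleus replicates 1 to 4. Soleus 2 was thus the lowest library for Myh4, Mybpc2 and Mybph alike. Soleus 3 had the highest Myh4 value and the second lowest Mybpc2 value. Without soleus 2, the log2 fold change of Mybpc2 was -3.10 against EDL and -3.53 against psoas, and both calls held.

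Mybph, the gene of the shorter protein H, was far below the protein C genes in the fast muscles and had few counts in soleus. In EDL replicates 1 to 3, it had 1550, 395 and 846 counts, or 36.2, 7.44 and 46.5 normalized CPM. In psoas, it had 1089, 157 and 989 counts, or 28.7, 9.95 and 70.0 CPM. In soleus, it had 9, 4, 7 and 8 counts, or 0.616, 0.120, 0.558 and 0.422 CPM. The highest soleus library was therefore far below the lowest fast library, and all 4 soleus counts were above the limit of 3. The exact 95% Poisson interval of the lowest of these counts was 1.09 to 10.2, and that of the highest was 4.12 to 17.1. The log2 fold change was -6.29 (SE 0.86, 95% interval -8.17 to -4.41) for soleus against EDL, with an adjusted p of 0.000784 (edgeR's quasi-likelihood test, Benjamini-Hochberg). Against psoas it was -6.56 (SE 0.86, 95% interval -8.45 to -4.67), with an adjusted p of 0.000619. These are 78.1-fold and 94.4-fold differences, with intervals from 21.3 to 287 and from 25.5 to 349. In order of log2 fold change from the lowest, Mybph was gene 17 of 16112 against EDL and gene 12 against psoas. Both calls were lost with limma-voom (adjusted p = 0.019 against EDL and 0.0196 against psoas). They were also lost with limma-voom and the animal code as a random effect (0.0118 and 0.01003), which was not fitted in edgeR. These adjusted p were lower than those of limma-voom alone.

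Mybph differed more between libraries of a fast muscle than the protein C genes did. The highest library was 6.24-fold above the lowest in EDL and 7.03-fold in psoas, whereas Mybpc1 spanned 1.53-fold and 1.64-fold and Mybpc2 1.99-fold and 1.03-fold. In both muscles, replicate 2 (54 days, male, trimmed reads) was the lowest and replicate 3 (44 days, female, untrimmed reads) the highest. Replicates 1 and 2 were all male with trimmed reads, so between them age and animal cannot be told apart, and replicate 3 differed from both in sex and trimming as well as in age and animal. In the untrimmed libraries alone, EDL 3 at 46.5 CPM was 108-fold and psoas 3 at 70.0 CPM was 163-fold above the soleus mean. With trimming as a covariate, the log2 fold change was -7.21 against EDL and -7.30 against psoas, and without psoas 3 it was -5.67 against psoas. Between psoas and EDL, the log2 fold change of 0.27 (SE 0.68, 95% interval -1.22 to 1.76) did not pass the test (adjusted p = 0.833), and its sign turned without EDL 2 or without psoas 3.

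**Figure D2:**
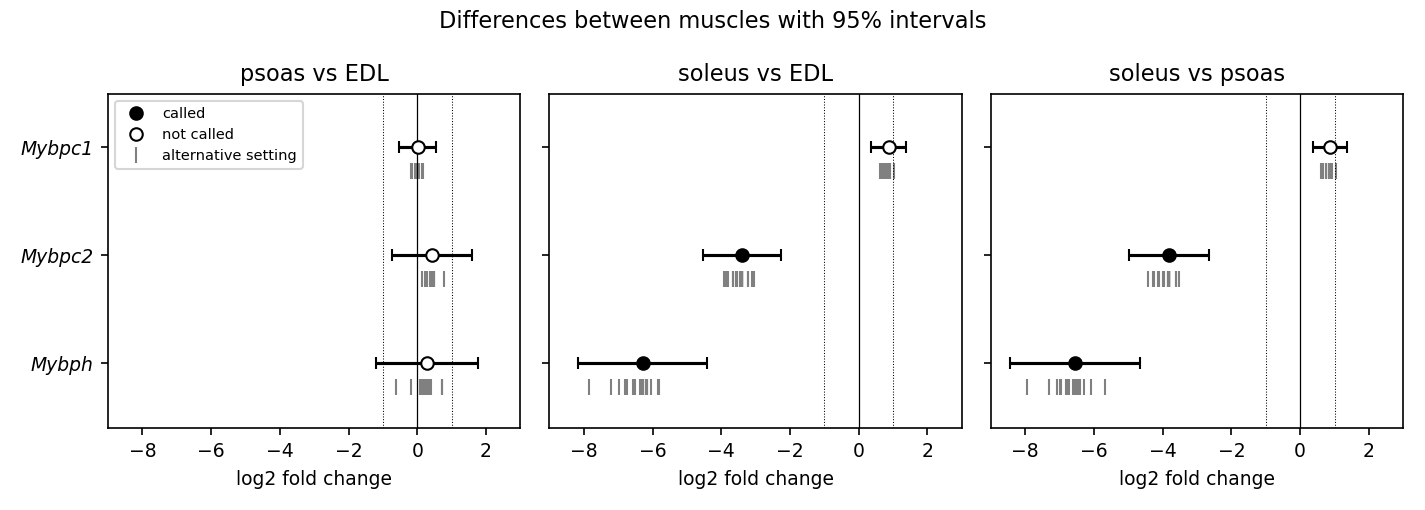
Log2 fold change (horizontal) of the 3 genes in each comparison of muscles, with 95% intervals; filled points were called, dotted lines mark a fold change of 2 and gray ticks are the alternative settings. Mybpc2 and Mybph lie below -2 in both comparisons with soleus, and the 3 intervals of psoas vs EDL include 0.

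The 3' end of Mybph overlaps Adora1, the gene of the adenosine A1 receptor, which is read from the opposite strand (chr1:134199223-134235431). The genes share 1162 of the 2329 exon bases of Mybph (49.9%). The sources used here name a stranded library kit but not the strand setting of the counting, so reads of the shared bases may have been given to either gene or to neither. In EDL and psoas, Adora1 had 76, 31 and 37 and 73, 6 and 55 counts, which was between 3.82% and 7.85% of the Mybph count of the same library. In soleus, Adora1 had 1, 10, 0 and 3 counts. The gene with the overlap thus had few counts in every library, and its log2 fold change was -3.13 for soleus against EDL (SE 0.83, adjusted p = 0.0235). Against psoas it was -3.64 (SE 0.83, adjusted p = 0.013), and neither was called. Over the 1167 unshared bases alone, the Mybph counts would amount to 25.7 ± 17.3 FPKM in EDL and 31.1 ± 26.3 in psoas (SD, n = 3 each). This changes only the length, and the part of reads from the shared bases in the difference between muscles was not tested.

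**Figure D3:**
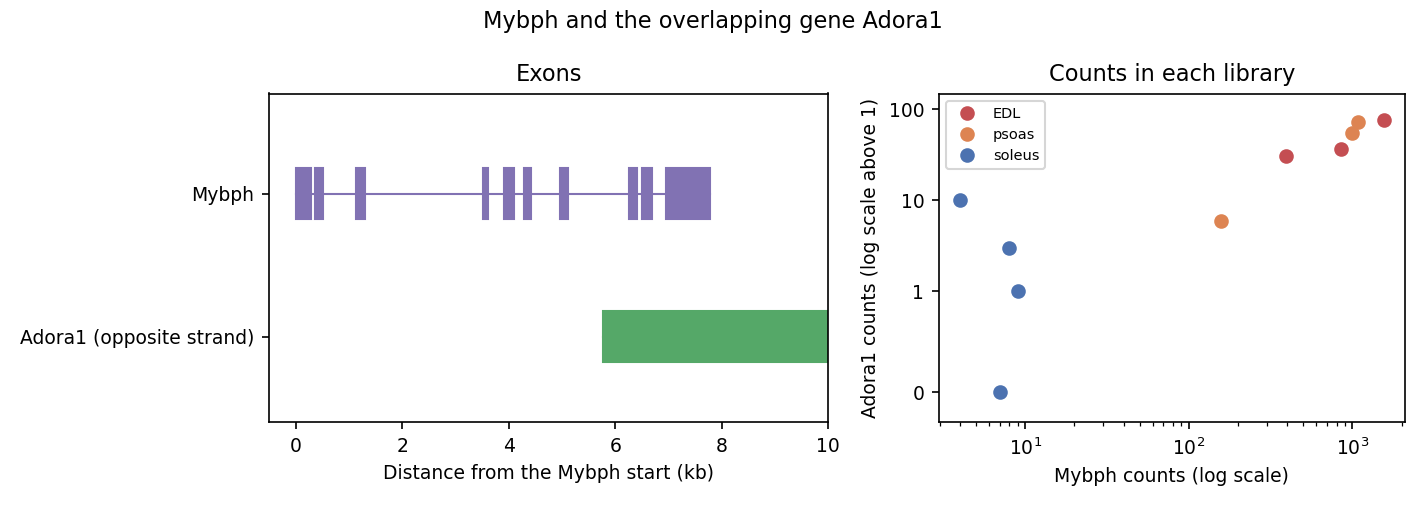
Left, exons of Mybph and of Adora1 by distance from the Mybph start (kb, to scale); right, Adora1 against Mybph counts in each library, on log axes with 0 shown. The last exon of Adora1 covers the 3' exons of Mybph, and the soleus libraries hold at most 9 Mybph and 10 Adora1 counts.

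Of the coding genes next to Mybph, none was called in soleus. Myog, the gene of the myogenic factor myogenin and the next coding gene beyond Adora1, had log2 fold changes of 0.41 (adjusted p = 0.491) and 0.39 (adjusted p = 0.587) for soleus against EDL and psoas. Chil1, on the other side of Mybph, had -1.37 (adjusted p = 0.225) and 1.01 (adjusted p = 0.53). Chpt1, next to Mybpc1 on the same strand and a gene of phospholipid synthesis, was called higher in soleus against EDL at 1.02 (SE 0.20, adjusted p = 0.00663) but not against psoas at 0.56 (adjusted p = 0.0899).

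The balance of the slow-type and fast-type protein C genes was computed per kilobase in each library, without a test. Mybpc1 made up 21.7%, 30.3% and 19.8% of the sum of Mybpc1 and Mybpc2 in EDL replicates 1 to 3. In psoas, its share was 14.1%, 19.4% and 21.5%. In soleus, it was 74.8%, 94.7%, 91.8% and 82.2%. The mean share was 23.9% ± 5.6 in EDL, 18.3% ± 3.8 in psoas (SD, n = 3 each) and 85.9% ± 9.1 in soleus (SD, n = 4), and the soleus libraries did not overlap with those of the fast muscles. In the fast muscles, the slow-type gene thus held between 14.1% and 30.3% of the protein C transcripts. The sum of both genes was 952 ± 315 FPKM in EDL, 1203 ± 43.4 in psoas and 474 ± 43.7 in soleus, where the highest library, at 516, was below the lowest fast library, at 759. Mybph added between 0.355% and 2.35% to the transcripts of the 3 genes in the fast muscles and at most 0.0547% in soleus.

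**Figure D4:**
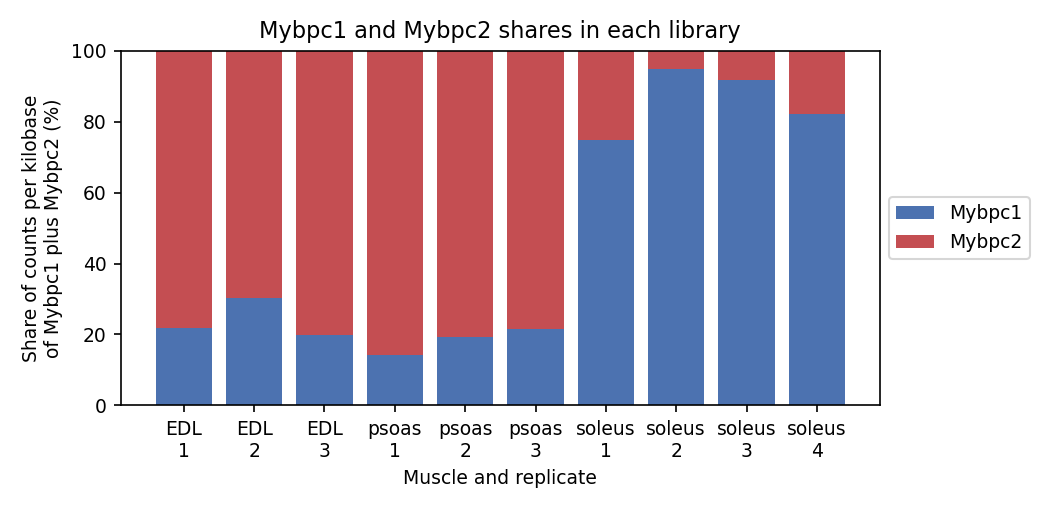
Shares (vertical, %) of Mybpc1 (blue) and Mybpc2 (red) in their summed counts per kilobase in each library (horizontal). Mybpc1 holds 14.1% to 30.3% in EDL and psoas and 74.8% to 94.7% in soleus.

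For 3 animal codes, the labels give both a fast muscle and the soleus. The ratios within each code use the same libraries as above and were not tested. In animal 659, the ratio of soleus 1 to psoas 1 was 2.33 for Mybpc1, 0.128 for Mybpc2 and 0.0214 for Mybph. In animal 765B, the ratio of soleus 4 to psoas 3 was 1.58, 0.0938 and 0.00603 for these genes. In animal 765A, the ratio of soleus 2 to EDL 3 was 1.58, 0.0217 and 0.00257. Every soleus library lay above (Mybpc1) or below (Mybpc2 and Mybph) every fast library, so the direction of these ratios was fixed in advance. They add only the size within a code, and different codes may share a mouse. The log2 ratio of Mybpc1 was between 0.66 and 1.22, that of Mybpc2 between -5.53 and -2.96, and that of Mybph between -8.60 and -5.54.

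The other slow-type and fast-type genes of the sarcomere and of calcium handling were compared in the same fit. All 14 slow-type genes were called higher in soleus against EDL (median log2 fold change 6.71, against -0.05 over all genes) and against psoas (median 7.70, against 0.02), while 3.59% and 2.99% of all genes were called higher. Against EDL, the values were 7.58 for Myh7 (slow myosin heavy chain), 8.20 for Myl3 (slow essential light chain), 7.22 for Tnni1 and 7.23 for Tnnc1 (slow troponin I and troponin C). Against psoas, they were 10.66 for Myh7, 9.66 for Myl2 (slow regulatory light chain), 9.57 for Tnnt1 (slow troponin T) and 9.80 for Tnni1. Tpm3, a slow tropomyosin gene, had 6.42 and 7.99, and Atp2a2, the gene of the slow calcium pump, 7.07 and 7.42. The lowest slow-type values were 2.62 for Myh7b against EDL and 2.73 for Casq2 against psoas. The 0.88 and 0.87 of Mybpc1 were below each of these 14 estimates, and so were the upper bounds of its intervals, 1.39 and 1.38. Without soleus 2, 14 slow-type genes were called higher against EDL and 12 against psoas.

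Of the 14 fast-type genes, 8 were called lower in soleus against EDL and 10 against psoas, with medians of -1.53 and -1.76. Of all genes, 2.18% and 2.71% were called lower. Those that fell most against EDL were Myh4 at -5.16, Pvalb (parvalbumin, a calcium buffer) at -4.80, Actn3 (alpha-actinin-3 of the Z-disk) at -3.63 and Mylpf (fast regulatory light chain) at -1.70. Against psoas they were Myh4 at -5.46, Pvalb at -4.89, Actn3 at -4.64 and Mylk2 (myosin light chain kinase of skeletal muscle) at -2.29. Myl1, the fast essential light chain gene, was called at -1.42 and -1.85. Fast troponin genes showed smaller differences, with -0.73 and -1.11 for Tnnt3, -0.66 and -1.16 for Tnni2, and -0.19 and -0.92 for Tnnc2, of which Tnni2 against psoas was called. Tpm1 had -0.84 and, called against psoas, -1.46. Myh1, the heavy chain gene of 2X fibers, had -0.57 and -0.89, neither of them called. The estimates of Mybph were lower than those of all 14 fast-type genes in both comparisons, and those of Mybpc2 lay between Mylpf or Mylk2 and Actn3. Without soleus 2, 7 fast-type genes were called lower against EDL and 8 against psoas.

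**Figure D5:**
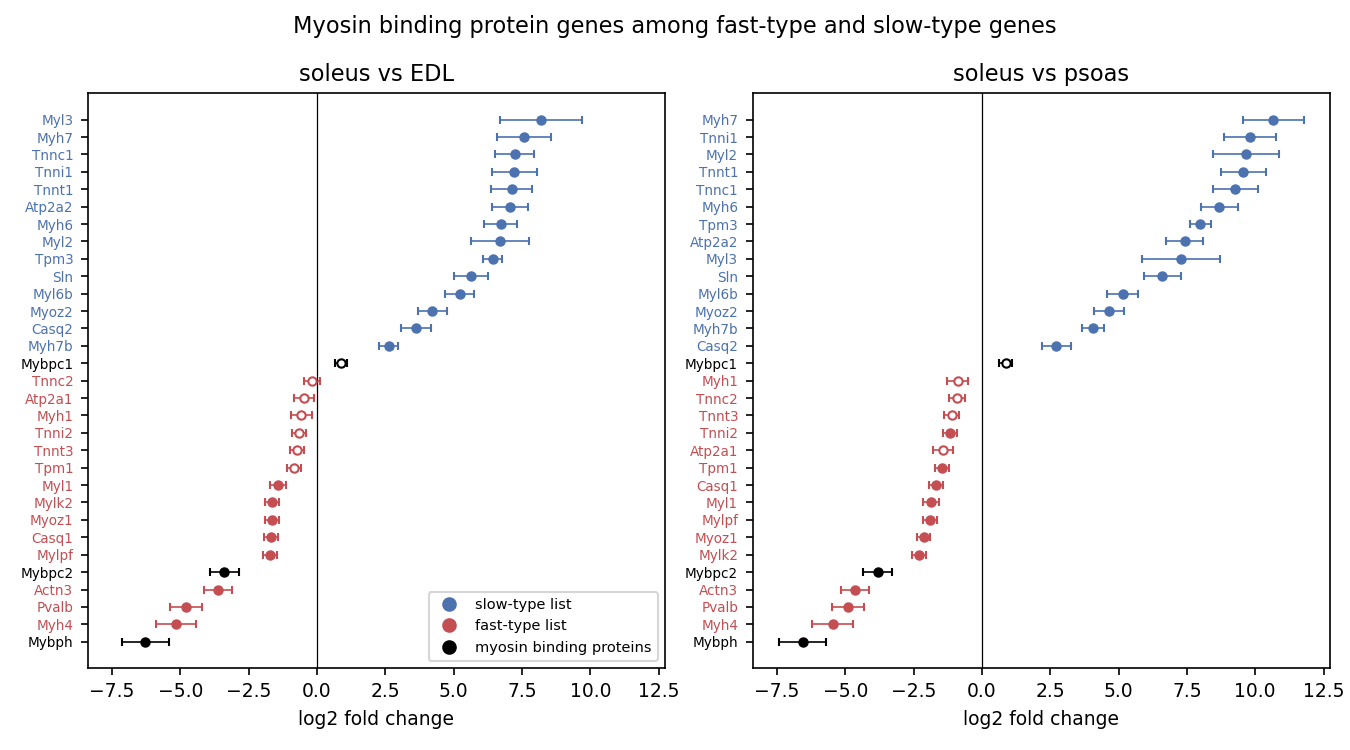
Log2 fold change with SE (horizontal) of the slow-type list (blue), the fast-type list (red) and the 3 myosin binding protein genes (black), each gene on its own line in order of its estimate; open points were not called. Mybpc1 lies between the lists, and Mybph is the lowest gene in both comparisons.

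The other thick filament and M-band genes moved in both directions. Several of them, such as Myh7, Myl3 and Myh4, are also in the slow-type or fast-type list. The counts below are therefore not separate from those above. Of 24 genes in the files, 9 were called higher and 6 lower in soleus against EDL, and 7 higher and 7 lower against psoas. Of all genes, 3.59% were called higher and 2.18% lower against EDL, and 2.99% and 2.71% against psoas. Those with the largest differences against EDL were Myl3 at 8.20, Myh7 at 7.58, Myh6 at 6.72 and Myl2 at 6.70, and the same 4 genes led against psoas, where Myh6 had 8.69 and Myl3 had 7.29. Myh2, the heavy chain gene of 2A fibers, was called higher against EDL at 1.97 but not against psoas at 1.42. Ttn, the gene of titin, to which protein C binds, had 0.66 and -0.16 and passed neither test. Without soleus 2, the counts were 8 higher and 4 lower against EDL, and 6 higher and 7 lower against psoas. The calls over all genes also fell, from 929 to 628 against EDL and from 917 to 609 against psoas.

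Of 19 genes of kinases, phosphatases and binding partners of protein C, 3 were called higher and 2 lower in soleus against EDL, and none higher and 4 lower against psoas. Over all genes, the shares called were 3.59% higher and 2.18% lower against EDL, and 2.99% and 2.71% against psoas. Against EDL, Fhl1, whose LIM protein binds protein C, had a log2 fold change of 2.25 and Prkaca, a catalytic subunit of protein kinase A, of 1.49. Actc1 (cardiac actin) had -3.49 and Camk2a (a calcium and calmodulin dependent kinase) -1.58. The remaining called gene was Ppp2ca, a catalytic subunit of protein phosphatase 2A. Against psoas, the log2 fold changes of the 4 called genes were -2.71 for Camk2a, -1.60 for Ckm (muscle creatine kinase), -1.58 for Prkca (protein kinase C alpha) and -1.20 for Camk2g. Capn3, the gene of a muscle calpain, had 0.26 and -0.30 and was not called. Without soleus 2, 1 gene of this list was called higher and 1 lower against EDL, and 4 were called lower against psoas. In that setting, 628 of all genes were called against EDL in place of 929, and 609 against psoas in place of 917. Between psoas and EDL, no gene of any of the 4 lists was called, and the medians were 0.43 for the thick filament list, 0.55 for the kinase list, 0.46 for the fast-type list and -1.51 for the slow-type list, against 0.01 over all genes.

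The genes whose log2 CPM ran closest to each member over the 10 libraries were taken from 12664 genes with a symbol and a mean of at least 1 CPM. The libraries fall into soleus and fast muscles, so these correlations largely describe that split, and no p is given. For Mybpc1, the closest were Myl3 (r = 0.98), Egln3 (0.979), Idh2 (0.972), Tpd52l1 (0.971) and Gstz1 (0.97). Myl3 and Idh2, a mitochondrial isocitrate dehydrogenase, changed far more than Mybpc1 did, with Idh2 at 117 ± 46.9 CPM in EDL (SD, n = 3) and 1497 ± 382 in soleus (SD, n = 4). Egln3, a prolyl hydroxylase of the hypoxia response, stood at 7.85 ± 1.72 and 36.9 ± 7.26. For Mybpc2, the closest were Pvalb (r = 0.991), Actn3 (0.99), Atl2 (0.983), Sar1b (0.976) and Gpt2 (0.975). Pvalb and Actn3 are fast fiber genes, and Sar1b is a small GTPase of transport from the endoplasmic reticulum. For Mybph, the closest were Mylpf (r = 0.967), Gpd2 (0.965), Gadd45a (0.961), Cnp (0.958) and Lman1 (0.955). Gpd2, the mitochondrial glycerol phosphate dehydrogenase, stood at 204 ± 86.6 CPM in EDL, 220 ± 56.4 in psoas and 19.4 ± 4.43 in soleus. Between members, r was 0.94 for Mybpc2 and Mybph, -0.83 for Mybpc1 and Mybpc2, and -0.84 for Mybpc1 and Mybph.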

How the data were processed

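The authors extracted total RNA from dissected muscles, made libraries with a TruSeq Stranded Total RNA kit and sequenced pairs of 75-base reads. They trimmed the reads of 4 libraries with Trimmomatic 0.32, aligned with TopHat2 2.1.1 (submitters' processing notes) to GRCm38, counted reads per gene in R, and dropped genes that did not reach 10 reads in 3 samples. The deposited values are raw counts without normalization. The strand setting of the counting is not given in the sources used here.

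Counts were fitted with edgeR 4.0.16 (R 4.3.3): quasi-likelihood test, TMM normalization, muscle as the only term, 10 libraries, all 16112 genes, Benjamini-Hochberg adjustment. Calls required an adjusted p below 0.01 and a change of more than 2-fold. The libraries of a muscle were biological replicates in the study, but muscles of the same mouse entered different groups, and the fit treated all libraries as independent. Normalized CPM are counts scaled to the effective (TMM) library total, and FPKM are these per kilobase of summed exons (GENCODE M21, with a symbol for 16032 genes). Log2 CPM for correlations used a prior count of 2. The fit was tested on simulated data. Tables were made with Python 3.11.15, pandas 2.3.3, numpy 2.4.6 and scipy 1.17.1.

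The genes named are the 3 members, the 5 genes closest to each by Pearson's r, and, from 4 lists, genes called and among the 4 largest changes of their list, or named in the study's text. The values of 1 list gene are not reported here. Casq2, Myh3, Myh7b, Myh8, Ppp2ca and the neighboring genes were named after their values were seen. Of the marker lists, those for muscle fibers, slow, fast and new or denervated fibers, tendon, adipocytes and heart muscle bear on the labels. The members and lists were chosen with earlier results of these data known. Alternatives were DESeq2 1.42.0, limma-voom (limma 3.58.1), other normalizations and filters, thinned counts, and leaving out each library. Covariates were trimming, sex, replicate number and a stand-in for the sequencing run, as the run of each library is not given. The animal code entered as a random effect in limma-voom, not in edgeR. A fit of the fast muscles with a replicate block and the list counts without soleus 2 were added after seeing the data.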

Additional observations from a re-analysis of the deposited data

Results flagged for a closer look

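In soleus, the only muscle with 4 libraries, the Myh4 level of replicate 2 was 113 normalized CPM, far below the other libraries at 1548 to 1692, and its gap exceeded Dixon's critical value. Of 8 quantities examined in soleus, 1 was marked this way, and chance marks about 1 in 20. Mybpc1, Mybpc2 and Mybph had no such library.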

How the results depend on the processing

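The calls of Mybpc2 and Mybph in soleus kept their direction under all 23 alternatives of each comparison, and Mybpc1 was called under none of them. The adjusted p of Mybpc1 was below 0.01 with DESeq2 in both comparisons. Against psoas, it was also below 0.01 with limma-voom and the animal code as a random effect. In these fits its change was less than 2-fold. Mybpc2 against EDL missed the threshold in the test against a fold change of 2 (log2 fold change -3.40, adjusted p = 0.0105) and with the run covariate (-3.93, 0.0142). Mybph missed it with limma-voom (-6.16 against EDL, -6.40 against psoas) and with limma-voom and the animal code as a random effect (-6.79 and -6.95). The cause was not tested. Between psoas and EDL, Mybpc1 turned sign with upper-quartile normalization (-0.060), the muscles fitted alone (-0.0086), sex as a covariate (-0.022) and a replicate block in the fast muscles alone (-0.012). Without each library in turn, it ranged from -0.18 to 0.16 and Mybph from -0.62 (without psoas 3) to 0.73, with -0.19 without EDL 2. Same-numbered EDL and psoas libraries deviated from their muscle means with correlations of 0.248, 0.0881 and 0.503. Libraries that share an animal code had 0.340, 0.187 and 0.381, so these correlations cannot decide whether the numbers mark pairs. The labels give same-numbered EDL and psoas libraries different codes, and the main fit did not pair them. With the replicate block over all libraries, Mybpc2 (-3.81 and -4.27) and Mybph (-6.05 and -6.29) were still called in soleus and Mybpc1 (0.88 and 0.88) was still not, and 146, 586 and 539 genes were called for psoas against EDL, soleus against EDL and soleus against psoas, in place of 340, 929 and 917. In that order, DESeq2 called 1095, 1520 and 1382 genes, the test against a fold change of 2 called 27, 185 and 176, the trimming covariate gave 605, 371 and 566, and the run covariate 757, 251 and 475. Sex as a covariate gave 865 and the muscles alone 153 for psoas against EDL, or 291 with a replicate block in the fast muscles alone, and leaving out a library gave 61 to 963, 385 to 1511 and 493 to 964. EDL 3 gave the highest of the first and second range. For Mybph, the fold change moved by over 1.5 times with trimming (-7.21 and -7.30) and run (-7.86 and -7.95) as covariates, with sex as a covariate against EDL (-6.99), and without psoas 3 against psoas (-5.67). That of Mybpc2 against psoas did so with the run covariate (-4.42). The share of Mybpc1 moved by less than 1 SD with other lengths (20.5% to 28.2% in the fast muscles, 87.5% to 88.3% in soleus) or without a library. Upper-quartile normalization moved the median of all genes to -0.14 for soleus against EDL. In soleus, Mybph rests on 4 to 9 counts a library, which limits the size of its fold change.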
